A study of Mus musculus with 6 samples.

Results

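The genes described here are 10 components of fibroblast growth factor (FGF) signalling that neural progenitors are known to use. They are the receptors Fgfr1, Fgfr2 and Fgfr3, the secreted ligands Fgf8 and Fgf15, the Sprouty feedback inhibitors Spry1, Spry2 and Spry4, and the transcription factors Etv4 and Etv5. They were found by symbol in the annotation of the array, and each is represented by its probe set with 1 symbol and the highest mean signal, so that 10 of the 19938 genes measured are members. Differentiating cells were sorted into a CTIP2:GFP+ and a CTIP2:GFP- fraction on day 11, again on day 12 and again on day 13, and the RNA of each fraction went on 1 array per day. Both fractions came from 1 mouse embryonic stem cell line with a 129SVEV background, in which GFP was knocked in at the gene for CTIP2 (Bcl11b), a transcription factor of deep-layer cortical neurons and of other neurons, so GFP reports a gene and not a single cell type. All cultures were floating aggregates (the SFEBq method) grown with inhibitors of WNT and of the TGF-beta receptor in the first days, so the GFP- cells are not an untreated control. At least 80000 sorted cells were used for each RNA sample.

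FGF ligands bind receptor tyrosine kinases together with heparan sulfate chains at the cell surface, and the activated receptor signals through adaptors to the RAS-ERK cascade. The cascade switches on ETS factors such as Etv4 and Etv5 and also its own brakes, among them the Sprouty proteins and the ERK phosphatase Dusp6, so the targets are often used as a readout of the pathway. In the embryonic forebrain, FGF8 from the anterior midline patterns the cortex from front to back, and FGF receptors help to keep radial glia, the dividing progenitors along the ventricle, from turning into neurons too early. The measurements below are of RNA only, and neither phosphorylated ERK nor any protein was measured on these arrays.

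The values are log2 RMA signals, and a difference is GFP+ minus GFP- on the log2 scale, averaged over the 3 days. The fractions were compared within days with limma, and a call is a Benjamini-Hochberg adjusted p under 0.05 over all 19938 genes. The 3 arrays of a fraction come from consecutive days. The methods state independent experiments for the data in general, and neither they nor the labels say if the days were separate cultures, so a p-value measures the spread between these days, which may be technical, and precision is limited by having only 3 arrays per fraction. The GFP- array of day 13 stood apart, with an SD over its probe sets of 1.11 against 1.29 to 1.48 on the other 5 arrays, and its correlation with the others was 0.863 to 0.927. The labels call the cells cortical progenitors. Of 12 radial glia and progenitor markers, Fabp7 (11.65 ± 0.72 in GFP+ cells and 12.33 ± 0.08 in GFP- cells, SD, n = 3 each), Vim and Sox2 had high signals in both fractions, while Hes1 (5.10 ± 0.16 in GFP+ cells and 6.02 ± 0.57 in GFP- cells) and Prom1 (5.44 ± 0.12 in GFP+ cells and 6.30 ± 0.43 in GFP- cells) were near the median of the probe set means, 5.43, in GFP+ cells. By the test, 7 of the 12 were lower in GFP+ cells, against 0.567% of all genes. Bcl11b, the gene that carries GFP and so the basis of the sort, was higher in GFP+ cells by 1.87 (SE 0.19, limma adjusted p = 0.025). GABAergic interneuron genes, which do not belong to the cortical excitatory lineage, were also higher in GFP+ cells. Of the 7 listed, 6 were called (Dlx1, Dlx2, Dlx5, Gad1, Lhx6 and Sst), against 0.797% of all genes. Dlx1 had a difference of 3.22 (SE 0.18, limma adjusted p = 0.022), the most positive of the 19938 genes.

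Most of the FGF receptor and feedback genes had lower signals in GFP+ cells than in GFP- cells, and the difference passed the test for 2 receptors. Fgfr3 was 3.12-fold and Fgfr1 2.15-fold lower in GFP+ cells, and the other 8 members were not called (7 of the 10 were lower at an unadjusted limma p under 0.05, against 5.96% of all genes, and 0 higher, against 9.58%). A lower call was made for 0.567% of all genes, and a higher call, which no member had, for 0.797%. The mean difference exceeded 2-fold downwards for 3 of 10 members, Fgfr1, Fgfr3 and Spry1, against 1.02% of all genes, and exceeded it upwards for 0 of 10, against 1.97%. Signals were lower in GFP+ cells on all 3 days for 8 of 10 members, against 21.4% of all genes, and higher on all 3 days for 0 of 10, against 16.9%. For 6 of 10 every GFP+ array lay below every GFP- array, against 7.85% of all genes, and the reverse order was seen for 0 of 10, against 9.05%. Etv4, Spry1 and Fgf15 are among the 6 by narrow margins. The highest GFP+ and lowest GFP- values were 5.42 and 5.43 for Etv4, 6.63 and 6.67 for Spry1, and 5.68 and 5.73 for Fgf15. The median difference of the members was -0.85, against -0.05 over all genes. In sorted bulk RNA, fewer cells of a type that makes a transcript and less of it per cell cannot be told apart.

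**Figure D1:**
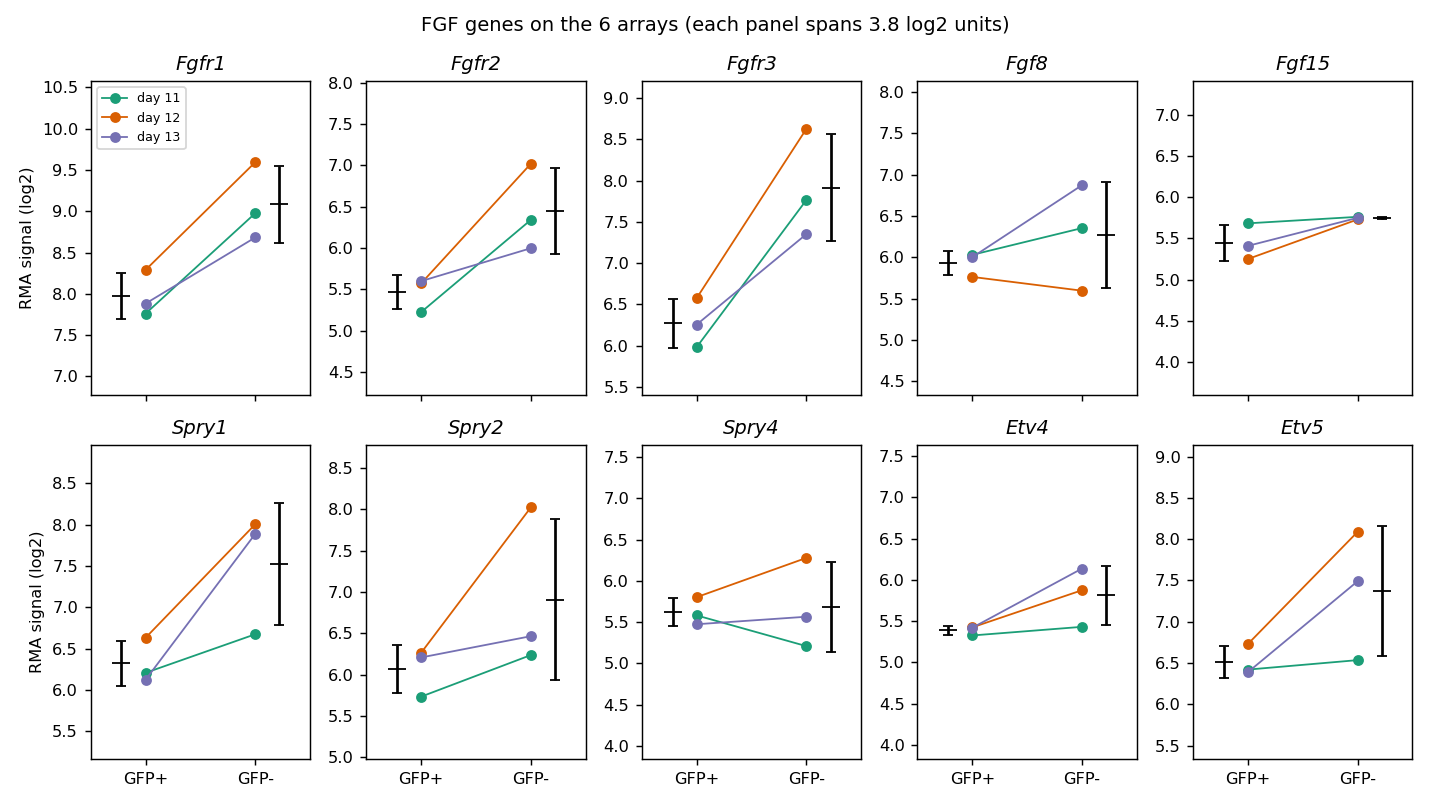
Log2 RMA signal (vertical axis) of each of the 10 FGF genes on the GFP+ and GFP- arrays, with a line joining the arrays of 1 day and, at the sides, the mean and SD of the 3 arrays of each fraction. The receptors Fgfr1, Fgfr2 and Fgfr3 lie lower on every GFP+ array than on any GFP- array. The inhibitor Spry1 does so by a narrow margin, whereas Fgf8 and Spry4 cross between days.

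The receptors gave the clearest separation of the fractions. Fgfr3, a receptor enriched in radial glia, had log2 signals of 5.98, 6.58 and 6.26 in GFP+ cells on day 11, day 12 and day 13, against 7.76, 8.63 and 7.35 in GFP- cells. Every GFP+ array was thus below every GFP- array, and the lowest GFP- value was that of day 13. The means were 6.27 ± 0.30 in GFP+ cells and 7.91 ± 0.65 in GFP- cells (SD, n = 3 each), a difference of -1.64 (SE 0.21, limma adjusted p = 0.037), which ranked 30 from the most negative of the 19938 genes. Fgfr1, a receptor expressed widely in the neuroepithelium, had 7.76, 8.29 and 7.88 in GFP+ cells against 8.98, 9.59 and 8.68 in GFP- cells. Its fractions did not overlap either, and its difference was -1.11 (SE 0.16, limma adjusted p = 0.045), from means of 7.98 ± 0.28 in GFP+ cells and 9.08 ± 0.47 in GFP- cells (SD, n = 3 each). Fgfr2 had 5.22, 5.57 and 5.60 in GFP+ cells against 6.34, 7.02 and 6.0 in GFP- cells. Here too the highest GFP+ array was below the lowest GFP- array, but the day 13 gap of -0.40 was smaller than those of day 11 (-1.12) and day 12 (-1.45), and the mean difference of -0.99 (SE 0.23) was not called (limma adjusted p = 0.109). The receptor differences on day 11, day 12 and day 13 were -1.78, -2.05 and -1.10 for Fgfr3 and -1.22, -1.30 and -0.80 for Fgfr1, so that all 3 receptors differed least on day 13.

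Both receptor calls lie close to the threshold. Without day 13, the limma adjusted p was 0.052 for Fgfr3 (difference -1.92) and 0.055 for Fgfr1 (-1.26). No gene at all was called in that fit, although 1543 genes higher and 1521 lower had an unadjusted limma p under 0.05. Without day 11, Fgfr1 had a limma adjusted p of 0.057 and Fgfr3 one of 0.0029. The SE without day 11 (0.31 for each) was close to that of the other members. Those adjusted p-values thus do not measure the spread of the 2 receptors themselves. In the fit without the pairing by day, the adjusted p was 0.098 for Fgfr3 and 0.135 for Fgfr1, and when the GFP- array of day 13 was also left out, it was 0.045 for Fgfr3 and 0.066 for Fgfr1.

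Neither ligand was called. Fgf8, the anterior patterning signal, had 6.03, 5.76 and 6.0 in GFP+ cells against 6.35, 5.60 and 6.87 in GFP- cells. The fractions overlapped, with GFP+ cells lower on day 11 (-0.32) and day 13 (-0.87) and higher on day 12 (0.17), and the highest value was that of the GFP- array of day 13, which was also the highest of the 6 arrays for Etv4 (2 of 10 members, against 37.9% of all genes). The mean difference of Fgf8 was -0.34 (SE 0.22, limma adjusted p = 0.545), and it was -0.08 without day 13 and -0.60 without day 12 (adjusted p = 0.174). Fgf15, a ligand expressed by forebrain progenitors of the mouse, had 5.68, 5.25 and 5.41 in GFP+ cells against 5.76, 5.73 and 5.75 in GFP- cells. Its GFP- values had an SD of 0.016, and every GFP+ value was below them, but the difference of -0.30 (SE 0.15, limma adjusted p = 0.428) was small and not called.

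Of the Sprouty genes, which encode inhibitors that act between the receptor and ERK, Spry1 had the widest gap. Spry1 signals were 6.21, 6.63 and 6.12 in GFP+ cells on day 11, day 12 and day 13, against 6.67, 8.01 and 7.89 in GFP- cells. The GFP+ arrays were close to one another and below all GFP- arrays, while the GFP- array of day 11 was much nearer to the GFP+ ones than those of day 12 and day 13. The daily differences were thus -0.47, -1.38 and -1.77, with a mean of -1.20 (SE 0.26, 2.30-fold) that was not called over the 3 days (limma adjusted p = 0.101). Without day 11 it was -1.57 with an adjusted p of 0.0022, without day 12 -1.12 with 0.046, and without day 13 -0.92 with 0.207. The SE without day 11 (0.30) was close to that of the other members, so that adjusted p does not measure the spread of Spry1 itself. Spry2 had 5.73, 6.26 and 6.21 in GFP+ cells against 6.24, 8.03 and 6.47 in GFP- cells. Its gap came mostly from the single GFP- array of day 12: the daily differences were -0.50, -1.76 and -0.26, with a mean of -0.84 (SE 0.30, limma adjusted p = 0.266) that was -0.38 without day 12. Spry4 had 5.58, 5.80 and 5.48 in GFP+ cells against 5.21, 6.28 and 5.57 in GFP- cells. The order of its fractions turned between days, and its mean difference was -0.06 (SE 0.20, limma adjusted p = 0.891).

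The ETS factors Etv4 and Etv5, which carry FGF signals to the genome, had small gaps on day 11 and wider ones afterwards. Etv4 had 5.33, 5.42 and 5.42 in GFP+ cells against 5.43, 5.87 and 6.14 in GFP- cells. The GFP+ values were nearly constant and all below the GFP- values, of which that of day 13 was the highest, and the mean difference was -0.42 (SE 0.17, limma adjusted p = 0.312), or -0.28 without day 13. Etv5 had 6.42, 6.73 and 6.39 in GFP+ cells against 6.53, 8.09 and 7.49 in GFP- cells. Its daily differences were -0.11, -1.36 and -1.10, and the GFP+ array of day 12 was above the GFP- array of day 11. The mean of -0.86 (SE 0.26) was not called (limma adjusted p = 0.192). Without day 11 it was -1.23 with an adjusted p of 0.018, from an SE largely shared between genes. Of the members, Etv5 alone has a second probe set, which had 5.71, 6.23 and 5.42 in GFP+ cells against 5.75, 7.19 and 6.19 in GFP- cells. The daily differences of the second probe set, -0.04, -0.96 and -0.77, followed the same order, with a mean of -0.59 (SE 0.21). The annotation places Etv5 on chromosome 16, as it does all 10 probe sets nearest in number to the second one, while the 10 nearest to the brighter one used here are placed on chromosome 10, and what that probe set measures was not tested.

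**Figure D2:**
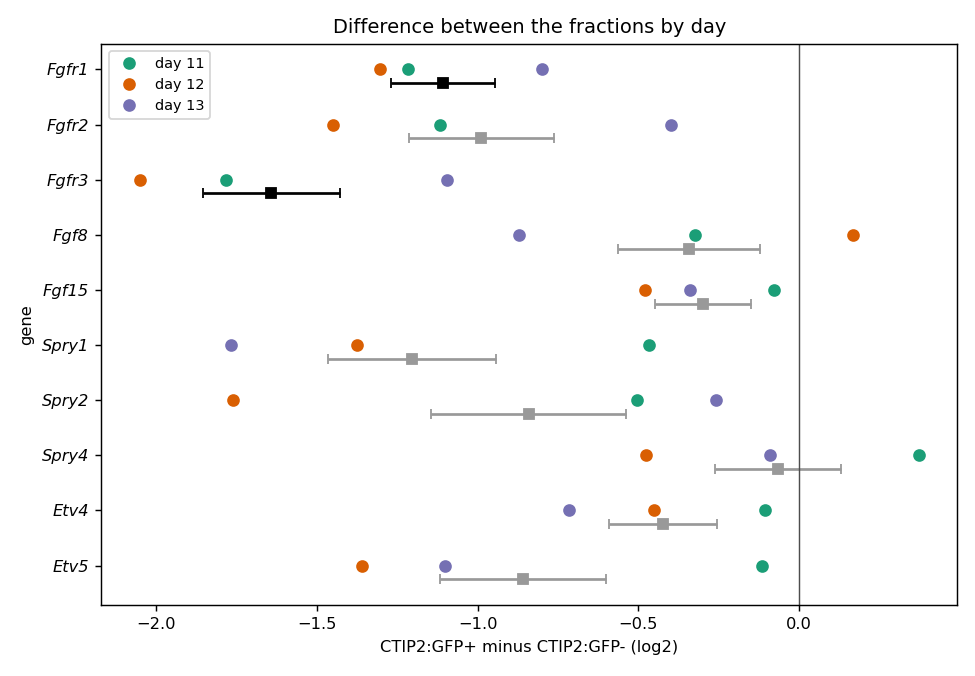
GFP+ minus GFP- log2 difference (horizontal axis) of the 10 FGF genes on day 11, day 12 and day 13 (coloured points), with squares for the mean of the 3 days and bars for the limma standard error, black where the adjusted p was under 0.05 and grey elsewhere. Fgfr1 and Fgfr3 carry the black squares, Spry1, Etv4 and Etv5 have their smallest gap on day 11, and the 3 receptors have theirs on day 13.

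The receptors thus had their smallest gap on day 13, whereas Spry1, Etv4 and Etv5 had theirs on day 11. A slope of the difference per day was fitted to such courses, with 1 residual degree of freedom. Its SE was 0.27 for every member and listed gene, a value shared between genes. The test therefore cannot decide if the course of a gene exceeds that gene's own spread. The test called 7 genes of 19938 (0.0351%) and no member. Spry1 had a slope of -0.65 per day (SE 0.27, limma adjusted p = 0.778) and was the 1 member with an unadjusted p under 0.05, against 1019 genes in all. A slope of the level over the days, shared by both fractions, was called for 0 genes (174 at an unadjusted limma p under 0.05, none of them a member).

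Day 12 was the high point of many members in both fractions. The GFP+ array of day 12 was the highest GFP+ array for 7 of 10 members, Fgfr1, Fgfr3, Spry1, Spry2, Spry4, Etv4 and Etv5, against 31.3% of all genes. The GFP- array of day 12 was the highest GFP- array for 7 of 10 as well, with Fgfr2 in place of Etv4, against 39.6% of all genes. In a contrast of day 12 with the mean of day 11 and day 13 over both fractions, which was chosen after the values had been seen, the difference was 0.98 for Spry2 (SE 0.32), 0.76 for Fgfr3 (SE 0.23) and -0.64 for Fgf8 (SE 0.23). None of these passed the test (limma adjusted p = 0.366 for each), nor did any gene of the 19938, although 2687 genes, 6 of them members, had an unadjusted p under 0.05. Other lists often had the same high point. Among GFP+ arrays, day 12 was the highest for 7 of 12 radial glia and progenitor genes, 5 of 9 proliferation genes, 10 of 12 neuron genes and 9 of 14 genes of the RAS-ERK cascade. Among GFP- arrays it was the highest for 11 of 12, 9 of 9, 7 of 12 and 10 of 14 of them. The part of cell composition in the day 12 values of the FGF genes was not tested.

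Across the 6 arrays, the members fell into patterns that can be described by correlation, with no test, since the points share arrays and the fractions differ. Fgfr1 and Fgfr3 had a Pearson r of 0.996, Fgfr2 and Fgfr3 of 0.986, and Fgfr1 and Fgfr2 of 0.975. Spry1 was closest to Etv5 (0.961) and Etv4 (0.930), and Spry2 to Etv5 (0.893) and Fgfr2 (0.890). Fgf8 followed none of them, with 0.452 for Fgf15 as its highest value and -0.633 for Spry4 as its lowest. Among 9968 other genes above the median gene mean, the nearest to Fgfr1 were the cell cycle genes E2f1 and Ccnd1 (0.998 each), and E2f8 was the nearest to Fgfr3 (0.998). Spry1 was nearest to Cenpa, a centromere histone (0.999), then to Dse (0.997) and to Aldh1l1, an enzyme of radial glia and astrocytes (0.994). The nearest to Fgfr2 was Mpp5, an apical polarity gene (0.997), and to Etv5 Pla2g7 (0.996). Fgf8 was nearest to Colq and Col6a1 (0.998 each). Fgf15 was nearest to Asic4 (0.963), then to Cbx2 (0.957) and to Il17rd, an inhibitor of FGF signalling (0.952). Spry2 was nearest to Rragd (0.995), Spry4 to Ermp1 (0.993) and Etv4 to Jade1 (0.9996). These are the best of many candidates over 6 arrays.

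Among 95 further listed genes of the pathway, 87 were measured, of which 2 were higher in GFP+ cells, 2 were lower and 83 were not called. Of all genes, 0.797% were called higher and 0.567% lower. The median difference of the 87 was -0.08, near that of all genes (-0.05) against -0.85 for the members. The called genes were Ccnd1, Sulf1, Sdc3 and Fgf13. Without day 13 none of these was called, with limma adjusted p from 0.052 (Ccnd1) to 0.086 (Fgf13), and without day 11 Sdc3 had 0.055.

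The other feedback inhibitors and ERK targets had 1 gene lower and 21 not called. At an unadjusted limma p under 0.05, 3 were higher and 4 lower, against 9.58% and 5.96% of all genes. Ccnd1, the cyclin D1 gene that growth factors switch on to start the cell cycle, had 6.49, 7.42 and 6.69 in GFP+ cells on day 11, day 12 and day 13, against 8.51, 9.42 and 8.13 in GFP- cells. The fractions did not overlap, and Ccnd1 was 3.52-fold lower in GFP+ cells (difference -1.81, SE 0.17, limma adjusted p = 0.025). Dusp6, the ERK phosphatase used as a sensor of FGF activity, had 5.74, 6.67 and 6.07 in GFP+ cells against 6.57, 7.92 and 6.98 in GFP- cells. GFP+ cells were lower on each day, with the day 12 GFP+ value above the day 11 GFP- value, and the difference of -1.0 (SE 0.15) just missed the threshold (limma adjusted p = 0.051). Dusp4, a related nuclear phosphatase, had the opposite order, with 8.03, 7.98 and 7.51 in GFP+ cells against 7.12, 7.38 and 6.35 in GFP- cells. Its difference was 0.89 (SE 0.16, limma adjusted p = 0.069) and was not called.

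Heparan sulfate genes, whose products present FGF to its receptor, had 1 gene higher, 1 lower and 20 not called of the 22 measured. Sulf1, an extracellular enzyme that removes sulfate groups from these chains, had 5.18, 4.92 and 5.13 in GFP+ cells against 6.31, 6.44 and 6.29 in GFP- cells. Its values were tight within each fraction and far apart between them (difference -1.27, SE 0.15, limma adjusted p = 0.032). Sdc3, a syndecan of neurons that carries heparan sulfate, had 8.22, 8.21 and 7.94 in GFP+ cells against 7.37, 7.18 and 6.87 in GFP- cells. All GFP+ arrays were above all GFP- arrays (difference 0.98, SE 0.14, limma adjusted p = 0.044). The glypican Gpc2 (1.15, SE 0.25, adjusted p = 0.101) and the sulfotransferase Ndst3 (1.12, SE 0.22, adjusted p = 0.083) had positive differences that were not called by limma. In the other direction, Gpc3 (-1.01, SE 0.25, adjusted p = 0.126) and Sulf2 (-0.94, SE 0.17, adjusted p = 0.066), named after their values were seen, had fractions that did not overlap and were not called either. At an unadjusted limma p under 0.05, 4 of the 22 heparan sulfate genes were higher and 7 were lower. The shares of all genes were 9.58% higher and 5.96% lower.

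Of the 4 intracellular FGF homologous factors, which are not secreted and bind sodium channels and microtubules, Fgf13 was higher in GFP+ cells. Its signals were 7.44, 6.91 and 6.93 in GFP+ cells against 5.89, 6.0 and 5.35 in GFP- cells (difference 1.34, SE 0.18, limma adjusted p = 0.043). Fgf14 (0.52, SE 0.14, adjusted p = 0.163) and Fgf12 (0.44, SE 0.16, adjusted p = 0.278) had differences of the same sign that limma did not call. Fgf11 differed by -0.12 (SE 0.22, adjusted p = 0.821).

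No other receptor, co-receptor, secreted ligand or cascade gene was called. At an unadjusted limma p under 0.05, 1 of 9 receptors and co-receptors was higher and 2 were lower, 2 of 14 cascade genes were higher and 0 lower, and 0 of 16 ligands differed. Of all genes, 9.58% were higher and 5.96% lower at that threshold. Fgfrl1, a receptor without a kinase domain, had 6.65, 6.77 and 6.62 in GFP+ cells against 7.31, 7.98 and 8.20 in GFP- cells (difference -1.15, SE 0.21, limma adjusted p = 0.067). Fgfbp3, a carrier protein that frees FGF from the matrix, had 5.43, 5.52 and 5.74 in GFP+ cells against 6.59, 6.78 and 6.49 in GFP- cells (-1.05, SE 0.16, limma adjusted p = 0.051). Both had fractions that did not overlap. Flrt2, of the same list and named after its values were seen, went the other way (1.04, SE 0.17, limma adjusted p = 0.057). All its GFP+ arrays were above all its GFP- arrays. In this list of 9, GFP+ arrays lay wholly below GFP- arrays for 3 genes and wholly above for 1. The shares of all genes were 7.85% and 9.05%. Among the 14 measured adaptors and RAS-ERK genes, the widest gaps were those of the kinase Braf and the scaffold Ksr1, at 0.66 each (SE 0.22 each, limma adjusted p = 0.239 and 0.238), and the median difference of the 14 was 0.06. Without day 13 the difference of Braf was 0.36, while that of Ksr1 was 0.39 without day 11 and 0.92 (limma adjusted p = 0.043) without day 12. The 16 other secreted ligands had a median difference of -0.11, and the widest were Fgf6 (-0.36, SE 0.24, limma adjusted p = 0.563) and Fgf16 (-0.34, SE 0.25, adjusted p = 0.592).

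**Figure D3:**
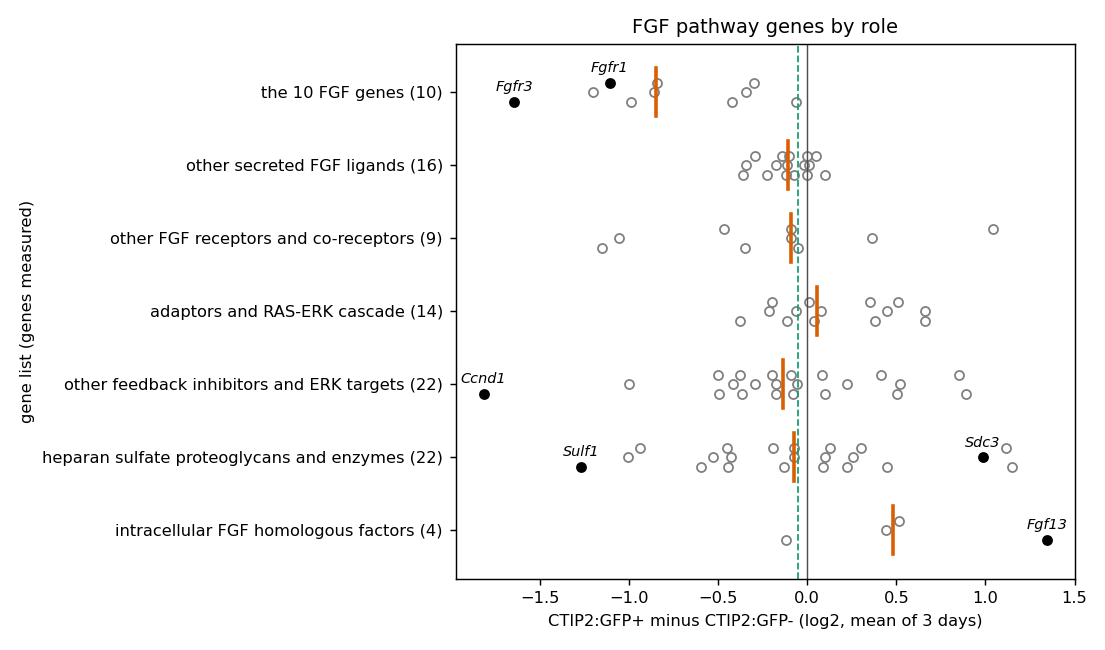
GFP+ minus GFP- log2 difference, mean of 3 days (horizontal axis), of the 10 FGF genes and of the 87 other pathway genes by role, each circle a gene, filled and named where the limma adjusted p was under 0.05, with an orange bar for the median of each list and a green dashed line for the median of all genes. The members have a median of -0.85, and the secreted ligands and the cascade genes lie around the line of all genes (-0.05).

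Progenitor and neuron markers differed between the fractions together with the FGF genes. Of 12 radial glia and progenitor genes, 7 were called lower in GFP+ cells (Nes, Slc1a3, Vim, Hes5, Notch1, Sox9 and Gli3), against 0.567% of all genes. Their list mean was 7.12 to 7.66 on the GFP+ arrays against 8.51 to 9.01 on the GFP- arrays, with a median difference of -1.32 over the 12. Slc1a3, a glutamate transporter of radial glia, had 5.88, 7.66 and 6.37 in GFP+ cells against 8.44, 10.05 and 9.58 in GFP- cells. None of 9 proliferation genes was called, and 7 were lower at an unadjusted limma p under 0.05, against 5.96% of all genes. The list mean was 6.54 to 7.18 on the GFP+ arrays against 7.37 to 8.18 on the GFP- arrays, with a median difference of -0.83. Of 12 neuron genes, 3 were called higher in GFP+ cells (Map2, Syt1 and Mapt), against 0.797% of all genes. Signals were higher in GFP+ cells on all 3 days for 9 of the 12, against 16.9% of all genes. Nefm had a mean difference of -0.25 (SE 0.21, limma adjusted p = 0.644). Nefl (-0.74) and Elavl4 (-0.13) were lower in GFP+ cells on day 11. The list mean was 8.86 to 9.26 on the GFP+ arrays against 7.31 to 8.37 on the GFP- arrays. The 3 FGF receptors had means of 6.32, 6.81 and 6.58 in GFP+ cells on day 11, day 12 and day 13, against 7.69, 8.41 and 7.34 in GFP- cells. The share of the receptor difference that goes with the share of progenitors was not tested. Of 6 deep-layer markers only Bcl11b was called, and since the cells were sorted on its reporter, that call is a check of the sort. The other 5 went both ways. Fezf2 (-0.31) and Sox5 (-0.24) were lower in GFP+ cells, and Tbr1 (0.74), Foxp2 (0.57) and Ldb2 (0.49) were higher. In 8 further lists (intermediate progenitors, pluripotent cells, mesenchyme, endothelium and blood, surface epithelium, oligodendrocyte lineage and astrocytes, telencephalic midline, midbrain-hindbrain border), limma called 0 of 55 genes. Of the 55, 1 was higher and 9 were lower at an unadjusted limma p under 0.05, against 9.58% and 5.96% of all genes.

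**Figure D4:**
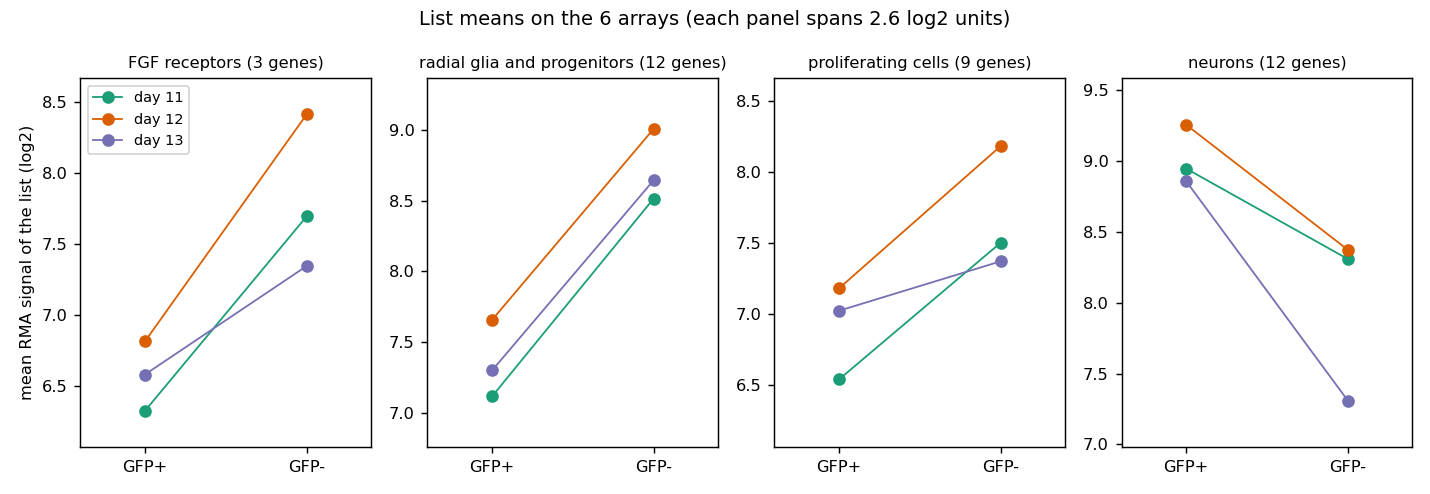
Mean log2 RMA signal (vertical axis) of the FGF receptors and of 3 marker lists on the GFP+ and GFP- arrays, with a line joining the arrays of 1 day. The receptors, radial glia and proliferation genes are lower in GFP+ cells on each day and the neuron genes are higher, and within both fractions all 4 lists have their highest mean on day 12.

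The promoters of members with large gaps are shown for their sequence, since ETS factors such as Etv4 and Etv5 bind a GGAA core. In the RefSeq promoter table (GRCm38.p6), 5 of the 10 members were matched, with 7 start sites in all, and the sequences are the 250 bases upstream of the start, 5′ to 3′ on the strand of the gene, with GGAA and its reverse complement TTCC in capitals. The first of the Fgfr3 windows is chr5:33721474-33721723 (plus strand), the Spry1 window chr3:37639697-37639946 (plus strand) and the Fgfr2 window chr7:130266809-130267058 (minus strand).
Fgfr3: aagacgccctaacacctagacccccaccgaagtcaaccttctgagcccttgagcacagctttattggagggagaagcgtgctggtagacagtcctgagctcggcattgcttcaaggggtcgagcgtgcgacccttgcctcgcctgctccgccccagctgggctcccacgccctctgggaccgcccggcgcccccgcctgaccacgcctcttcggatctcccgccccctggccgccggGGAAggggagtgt
Spry1: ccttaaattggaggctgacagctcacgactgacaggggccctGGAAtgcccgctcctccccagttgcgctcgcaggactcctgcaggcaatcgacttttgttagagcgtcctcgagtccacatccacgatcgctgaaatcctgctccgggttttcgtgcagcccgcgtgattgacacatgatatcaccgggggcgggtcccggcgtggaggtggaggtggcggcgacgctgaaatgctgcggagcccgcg
Fgfr2: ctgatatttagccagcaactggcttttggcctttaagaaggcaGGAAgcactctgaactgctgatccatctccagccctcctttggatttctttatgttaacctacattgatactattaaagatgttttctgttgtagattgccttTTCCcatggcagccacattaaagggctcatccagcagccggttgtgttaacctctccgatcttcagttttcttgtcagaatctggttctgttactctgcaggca
The printed Fgfr3 and Spry1 windows are rich in G and C, at 66.8% and 62.4%, with 19 and 23 CG dinucleotides and 1 core each, whereas the Fgfr2 window has 44.0% G and C, 2 CG dinucleotides and 2 cores. The other start site of Fgfr3 has a window (chr5:33722056-33722305, not printed) with 72.8% G and C, 24 CG dinucleotides and 5 cores, so the number of cores differs between the start sites of 1 gene. A core is present in 6 of 7 member windows and in 93.446% of the 32851 windows of the table, so its presence sets no gene apart. The longer ETS site CCGGAAGT (either strand) was in 0 of 7 member windows and 3.887% of all windows of 300 bases, which add 50 bases after the start. The octamers TGAATGAA and TGAATGGA, bound by Capicua, a repressor that ERK inactivates, were each in 0 of 7 member windows, against 1.303% and 1.205% of all windows, and no match says only that these letters are not in these windows.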

How the data were processed

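The 6 sorted samples were measured on Affymetrix Mouse Gene 1.0 ST chips. The deposited values are log2 signals that the authors had from GeneSpring (RMA16). The sources used here name no annotation version and no filter, and do not say if all arrays were normalized jointly. RMA compresses differences of dim probe sets. Of 28853 probe sets, 21789 had 1 symbol, 1621 had several and 5443 had none; 21698 were matched by Entrez ID to the GRCm38.p6 gene table, and 0 symbols changed. For the 999 genes with several probe sets, the brightest on average was kept, and nothing was filtered. The build of the values is not named, so coordinates are printed for RefSeq promoters only.

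The 19938 genes were tested in limma 3.58.1 under R 4.3.3 (day and fraction as factors, 2 residual degrees of freedom, eBayes, Benjamini-Hochberg). Pairing came from the day in the labels: after subtracting fraction means, the arrays of a day correlated across genes at 0.112 (day 11), 0.558 (day 12) and 0.368 (day 13), and the GFP+ array of day 11 reached 0.297 with an array of another day. All members were named, with each pathway list's called genes and its 2 widest others. Of the marker lists the called genes were named, and their widest others were not named by this rule. For each member the nearest gene by correlation and some of the next 2 were named. Fgf4, Klf4 and Pou5f1 in the closing section, and the marker genes given as examples, were chosen after their values were seen. The members, lists and tests were chosen with earlier results of these data known. The fit of the fraction difference was tested on simulated data. It recovered 28.1% of changes of 1 on the log2 scale and 95.8% of changes of 2, and 5.26% of its calls were false. The simulated errors were normal, independent between genes and drawn from variances that limma had fitted to these arrays. Errors shared between genes of an array, and the narrower GFP- array of day 13, were not simulated. The 5.26% is therefore not an estimate of the false calls on the real arrays. A gene with a difference near 1 that was not called may therefore still differ. Alternatives were the fit without day, also without the GFP- array of day 13, each day left out, median centring, quantile normalization, the mean of probe sets, filters at the 20th and 50th percentile of probe set means, a trended and robust eBayes and the methods' t-test. The day 12 contrast was added after seeing the data.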

Additional observations from a re-analysis of the deposited data

Results flagged for a closer look

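Fgf8 and Spry4 were the members whose fractions changed order between days. Fgf8 was lower in GFP+ cells on day 11 (-0.32) and day 13 (-0.87) and higher on day 12 (0.17). Spry4 was higher in GFP+ cells on day 11 (0.37) and lower on day 12 (-0.48) and day 13 (-0.091). With 1 array per fraction and day, the difference between single days was not tested, and the slope of the difference per day was not called for either gene (limma adjusted p = 0.999 for both). Groups of 3 arrays are too small for a test of single outlying samples.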

How the results depend on the processing

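The calls changed with the processing more often than the directions did. Of 120 member values under the alternatives, 98 kept their direction and their side of the threshold, 10 lost a call, 10 gained one and 2 turned. Against 159 genes higher and 113 lower in GFP+ cells, 2 members lower (3 over 2-fold lower) and 2 other pathway genes higher and 2 lower, the fit with no replicate block called 84 and 41 genes, 0 members lower and 0 pathway genes higher, and without the GFP- array of day 13 as well it called 1 member lower and 0 pathway genes higher, with 5 members over 2-fold lower. Leaving out 1 day gave 0 to 930 genes higher, 0 to 229 lower, 0 to 3 members lower, 3 to 5 over 2-fold lower, 0 to 7 pathway genes higher and 0 to 6 lower, with the zeros without day 13. Median centring called 0 genes in either direction and so 0 members and 0 pathway genes (1746 genes higher and 869 lower, 5 of them members, at an unadjusted limma p under 0.05), and 0 genes for the slope of the difference, against 7. Quantile normalization called 52 genes higher and 99 lower, 0 pathway genes higher and 0 genes for the slope, with 287 over 2-fold higher and 254 lower against 392 and 204. The mean of probe sets called 4 pathway genes lower. The filter at the 20th percentile called 387 genes higher and 226 lower and 5 and 6 pathway genes; the filter at the 50th called 703 and 337 genes, 5 members lower and 7 and 7 pathway genes. The trended and robust fit called 549 and 510 genes, 5 members lower, 4 and 7 pathway genes and 1 gene for the slope. The methods' t-test called 0 genes, members and pathway genes after Benjamini-Hochberg (966 genes higher and 790 lower, with 3 members, unadjusted). The difference of Spry4 (-0.06) ran from -0.28 to 0.14 when 1 day was left out and was 0.048 after quantile normalization, that of Fgf6 (-0.36) was 0.048 without the block and the GFP- array of day 13, and that of Fgf16 (-0.34) was 0.042 there and ran from -0.54 to 0.017 when 1 day was left out. The cause was not tested. The ligand list means (4.99 to 5.55) lay near the median of the probe set means, 5.43, and the files give no detection level.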

Other observations

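Most secreted FGF ligands had their highest signal on a single array. Of the 16 ligands other than Fgf8 and Fgf15, 12 were highest of the 6 arrays on the GFP- array of day 13, against 37.9% of all genes and 2 of the 10 members (Fgf8 and Etv4). The mean of the 16 was 5.02 to 5.19 in GFP+ cells, against 5.16, 4.99 and 5.55 in GFP- cells sorted at day 11, day 12 and day 13. Fgf4, a ligand of pluripotent cells, had 4.97, 4.96 and 4.91 in GFP+ cells on day 11, day 12 and day 13, against 4.67, 4.75 and 5.93 in GFP- cells. The pluripotency genes Pou5f1 (5.79 there, and 4.55 to 4.71 on the other 5 arrays) and Klf4 (7.07 there, and 5.02 to 5.66) were also highest there, as were 5 of 6 pluripotency and 7 of 8 mesenchyme genes. The part of that array's narrower range of signals in these values was not tested.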
